A study of Oryza sativa with 4 samples.

Results

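Rice panicles mutant in the Polycomb gene EMF2B had few well-expressed transcripts that were strongly reduced in every mutant library, and these loci are described here. RNA-seq measured transcripts in panicles 0.3 to 1.5 cm long (stage In7) of Dongjin rice grown in a greenhouse. The groups were wild type (WT) and the mutant emf2b-1, with 2 libraries each, and the nature of the allele is not described in the labels. A locus was included when both WT libraries held at least 10 CPM (counts of a locus scaled by the total of its library) and when the lower WT value was at least 3 times the higher emf2b value. Of 45027 listed loci, 10301 reached the WT minimum and 16 met the whole rule, or 0.155% of those that could have met it. Of the 16, OsMADS6 and OsMADS8 are MADS-box genes, OsYABBY1 is a YABBY gene, and MEL1 and ZEP1 act in germ cells and meiosis. The other 11 loci are the subject here. The rule used the levels of all 4 libraries, so the differences between the genotypes at these loci are a description and were not tested.

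**Figure D1:**
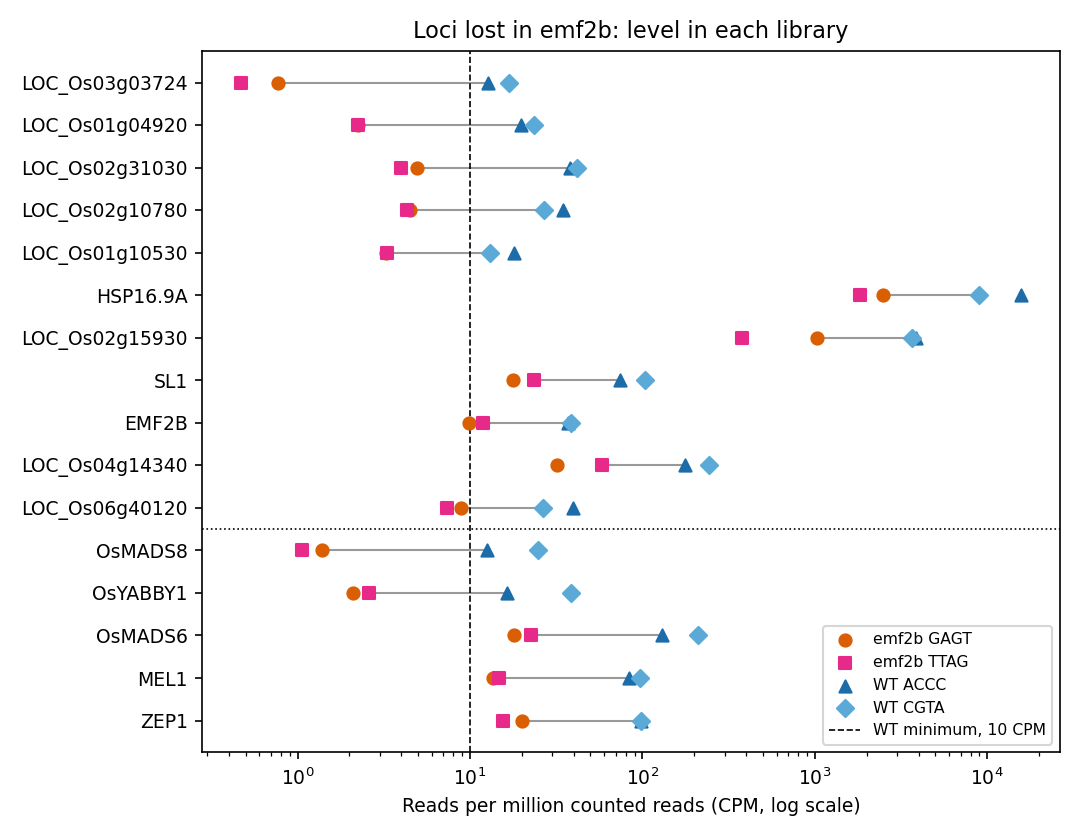
Level of each of the 16 loci in each library, in CPM on a log scale; the grey line joins the higher emf2b to the lower WT value, the dashed line marks the WT minimum of 10 CPM, and the 5 loci under the dotted line are the MADS-box, YABBY and meiosis members. HSP16.9A and LOC_Os02g15930 lie far above the others in level, and LOC_Os03g03724 has the widest gap, from 12.6 CPM in WT ACCC to 0.773 CPM in emf2b GAGT.

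EMF2B encodes a subunit of Polycomb repressive complex 2 (PRC2), which places the mark H3K27me3 on histones and so keeps target genes silent. Loss of such a repressor is known mainly for raising the transcripts of target genes. In rice, EMF2B is known for roles in flowering and in the specification of floral organs. Small heat shock proteins and C2H2 zinc finger proteins, which the set also holds, are chaperones and transcription factors.

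The 2 WT libraries are named here by their barcodes ACCC and CGTA and the 2 emf2b libraries by GAGT and TTAG. They held 25382519, 32087683, 12932305 and 16926873 counted reads in that order. The protocol text of every sample speaks of wild-type tissue, also for the emf2b samples, and the groups follow the genotype label. Nothing in the labels says that the libraries of a genotype came from separate plants. Of 9 marker genes of young panicles, 6 stood at 19.9 to 204 CPM in every library, among them OSH1, OSH15, RFL, OsMADS14 and OsMADS15. The other 3, with LAX1 and FZP among them, stayed at or under 2.19 CPM. Summed leaf photosynthesis genes were at 19.0 to 61.8 CPM and summed endosperm genes at 3.99 to 5.95 CPM. Reads were spread over more loci in emf2b (35614 and 41111 loci with a read) than in WT (31678 and 30611), although the mutant libraries were smaller.

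The losses were few beside the gains. Under the same rule turned around, 129 of 10172 loci (1.27%) were at least 3 times higher in both emf2b libraries than in either WT library. At 2 times the counts were 64 lower and 224 higher, at 8 times 3 lower and 43 higher, and at 16 times 1 lower and 14 higher. The 16 loci were spread over the range of WT levels: 5 had a lower WT value of 10 to 20 CPM, 4 of 20 to 50 CPM, 3 of 50 to 100 CPM and 4 above that. Leaving out a library can only relax the rule, so all 16 still met it, and it then admitted others as well, 59 loci in all without emf2b TTAG, 43 without WT ACCC, 33 without WT CGTA and 23 without emf2b GAGT.

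**Figure D2:**
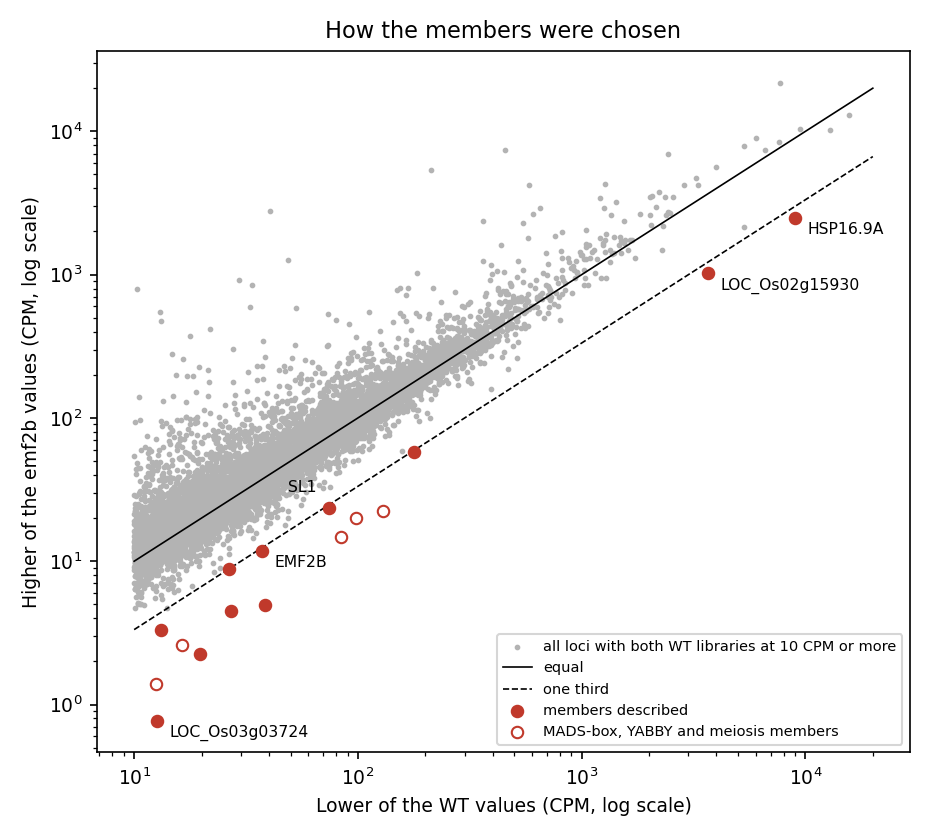
The lower of the WT values against the higher of the emf2b values, in CPM on log axes, for the 10301 loci with both WT libraries at 10 CPM or more. Filled circles are the 11 loci described, open circles the 5 MADS-box, YABBY and meiosis members, and the dashed line is the limit of the rule; the 16 members are sparse below it, and EMF2B, SL1 and others lie close to it.

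EMF2B itself (LOC_Os09g13630, chromosome 9) was among the members. Its level was 9.90 and 11.9 CPM in emf2b GAGT and TTAG, and 37.1 and 38.8 CPM in WT ACCC and CGTA. The libraries of each genotype lay close together, and the gap between the groups is one that the rule requires. The WT mean was 3.49 times the emf2b mean, the smallest such fold among the 16, and 128 and 201 reads were still counted at the locus in the mutant. The log2 fold change was -1.83 ± 0.21 (SE, edgeR fit), and reads of the targeted gene were thus lowered but present in both libraries labelled emf2b. The identifier was paired with the name EMF2B from general knowledge, since the gene table used here holds no such symbol.

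In the list of PRC2 and associated genes, 9 loci besides EMF2B entered the test: 1 rose, 0 fell and 8 did not pass (edgeR quasi-likelihood test, Benjamini-Hochberg adjusted over all 22615 tested loci). Over all tested loci, 13.5% rose and 2.21% fell, or 3057 and 499 loci. Without 1 library the counts were 16 and 4 (WT CGTA), 161 and 28 (WT ACCC), 1907 and 401 (emf2b TTAG) or 3673 and 254 (emf2b GAGT). For the 9 PRC2 loci, DESeq2 called 1 higher and 0 lower, and 1 and 1 had an unadjusted p under 0.05. The locus that rose, LOC_Os08g04290, had 1 and 0 reads in the WT libraries and 10 and 18 in the mutant ones (edgeR log2 fold change 5.31 ± 1.08 SE, adjusted p = 0.0163), and passed without emf2b GAGT, did not pass without either WT library and was too weakly counted to be tested without emf2b TTAG. LHP1, whose protein binds H3K27me3, had 82.8 and 96.0 CPM in the WT libraries and 64.9 CPM in each mutant library (edgeR adjusted p = 0.101). The median log2 fold change of the other loci of this list was -0.23, beside 0.01 over all tested loci. Of these 9 loci, 8 had both WT libraries at 10 CPM or more, and the median over the 10301 loci at that level was -0.15.

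SL1 (STAMENLESS1, LOC_Os01g03840, chromosome 1) is a C2H2 zinc finger gene of the JAGGED type, known in rice for its part in stamen and lodicule identity through B-class MADS genes. It had 17.86 and 23.5 CPM in emf2b GAGT and TTAG, and 74.1 and 103.7 CPM in WT ACCC and CGTA. All mutant values were under all WT values, as the rule requires, while WT CGTA stood 1.40 times above WT ACCC. The ratio of the means was 4.30. The ratio of the pooled reads, scaled by pooled totals, had an exact 95% interval of 3.97 to 4.69, which covers counting error only. The fitted log2 fold change was -2.14 ± 0.23 (SE) and stayed between -2.37 and -1.90 under the alternatives.

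SL1 was the only member among 8 tested meristem and spikelet genes. Of the 7 others 1 rose, 0 fell and 6 did not pass (edgeR, adjusted over all loci). Among all tested loci 13.5% rose and 2.21% fell. DESeq2 called 1 higher and 0 lower of 10, and 2 and 0 of the 7 had an unadjusted p under 0.05. The riser, LOC_Os05g41760, went from a WT mean of 113 ± 1.63 CPM to a mutant mean of 385 ± 226 CPM (SD over 2 libraries; adjusted p = 0.0237 by edgeR). This call was lost without either WT library, and the log2 fold change of 1.75 was 0.90 without emf2b GAGT. The list's risers then numbered 3, and 0 without either WT library. OSH1, a KNOX gene of the meristem, was at 26.2 and 25.9 CPM in the WT libraries and 25.1 and 29.4 CPM in the mutant ones.

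HSP16.9A (LOC_Os01g04370, chromosome 1) encodes a cytosolic small heat shock protein, a chaperone that binds unfolding proteins and is known to be induced by heat. It was the most abundant member: 15647 and 8986 CPM in WT ACCC and CGTA, against 2501 and 1821 CPM in emf2b GAGT and TTAG. In WT it ranked 2 and 4 among all loci and took 1.56% and 0.899% of counted reads. In emf2b it ranked 26 and 41 and took 0.250% and 0.182%. The WT libraries differed by 1.74 times, the widest WT gap among the 11 loci, while the rule fixes that the groups lie apart at every member. The fitted log2 fold change was -2.55 ± 0.41 (SE).

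Of 18 other small heat shock protein genes tested 0 rose, 0 fell and 18 did not pass by edgeR, with 2 higher and 2 lower at an unadjusted p under 0.05, and DESeq2 called 0 higher and 1 lower of 19. At all 10 small heat shock protein genes with at least 10 CPM in both WT libraries WT ACCC stood above WT CGTA, by 1.74 times at HSP16.9A and by 2.34 to 7.76 times at the 9 others. No test of a difference between HSP16.9A and these genes was run. The emf2b values were under both WT values at 1 of the 9 and above both at 0. LOC_Os01g08860, the most abundant of the others, had 10301 and 2442 CPM in WT ACCC and CGTA and 2766 and 6914 CPM in emf2b GAGT and TTAG. HSP17.9A followed with 2305 and 983 CPM, then 618 and 1444 CPM, in the same order.

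**Figure D3:**
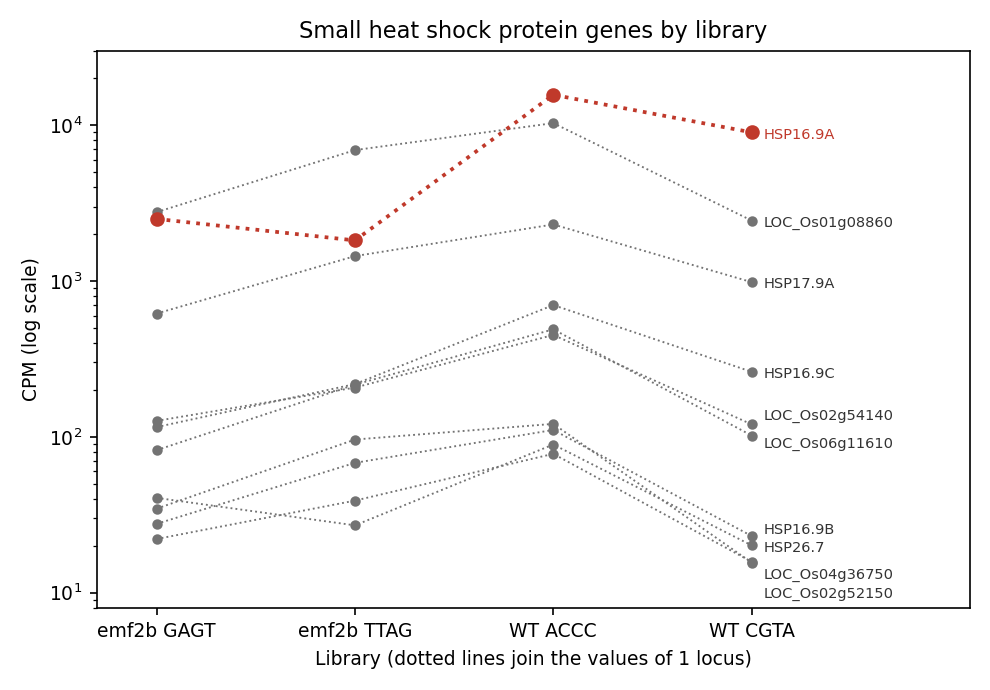
Level of the 10 small heat shock protein genes with at least 10 CPM in both WT libraries, in CPM on a log scale, by library; each dotted line joins the values of 1 locus and has no time or order. HSP16.9A, in red, is lower in both emf2b libraries than in either WT library, and all 10 genes are higher in WT ACCC than in WT CGTA.

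The direct neighbours of HSP16.9A in the order of listed loci are its relatives HSP16.9C and HSP16.9B. HSP16.9C had 701 and 262 CPM in WT ACCC and CGTA and 116 and 218 CPM in emf2b GAGT and TTAG, so its emf2b values were also under both WT values, by a narrow margin in 1 pair of libraries (-1.58 ± 0.48 SE on the log2 scale, edgeR adjusted p = 0.0672). It was the only one of the 9 others with that order of libraries, which 36.2% of the 10301 loci also showed. HSP16.9B had 111 and 23.1 CPM, then 27.7 and 68.1 CPM, with overlapping groups (-0.53 ± 0.68, edgeR adjusted p = 0.663). LOC_Os01g04340, also within 5 places of HSP16.9A, had the largest change among the others. It had 6.86 and 1.15 CPM in WT ACCC and CGTA and 1.01 and 0.591 CPM in emf2b GAGT and TTAG. Its groups did not overlap, but it did not pass edgeR (-2.37 ± 0.97, adjusted p = 0.156), passed DESeq2 (adjusted p = 0.0334), and stood at -0.61 without WT ACCC. LOC_Os01g04350, listed between LOC_Os01g04340 and HSP16.9C, went the other way without passing edgeR. It had 0.315 and 0.343 CPM in WT ACCC and CGTA and 0.928 and 2.07 CPM in emf2b GAGT and TTAG (2.17 ± 0.63, edgeR adjusted p = 0.0586). Short reads of these related copies could have been shared or split by the counting.

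Among 10 chaperone genes of the HSP101, HSP90 and HSP70 families 0 rose and 0 fell by edgeR, 0 and 2 at an unadjusted p under 0.05, and 0 and 2 by DESeq2. LOC_Os01g62290, of the HSP70 family, had the largest change, with 2787 and 485 CPM in WT ACCC and CGTA and 781 and 837 CPM in emf2b GAGT and TTAG (-1.06 ± 0.67, edgeR adjusted p = 0.350), and was at 0.70 without WT ACCC. HSP101, a disaggregase, stood at 1485 and 393 CPM in WT ACCC and CGTA and at 491 and 1161 CPM in emf2b GAGT and TTAG. Of the 10 chaperone genes, 9 had at least 10 CPM in both WT libraries. The emf2b values were under both WT values at 3 of these 9 and above both at 1. The former order was also seen at 36.2% of the 10301 loci. Of 12 heat stress transcription factor genes 2 rose, 0 fell and 10 did not pass (edgeR; 2 and 0 also by DESeq2 and at an unadjusted p under 0.05); without either WT library 0 passed, and without emf2b TTAG 1 rose. Beside these, 13.5% of all tested loci rose and 2.21% fell by edgeR. HSFC1B rose from 0.276 and 0.343 CPM in WT to 4.72 and 1.89 CPM in the mutant (edgeR adjusted p = 0.0188). HSFB2C rose from 71.4 ± 13.0 to 140.2 ± 41.5 CPM (edgeR adjusted p = 0.0424), and did not pass without the filter on low counts or with legacy quasi-dispersions. The growth temperature, 30°C by day and 25°C by night, is the same for all samples in the labels, and what set the level of heat shock transcripts in WT ACCC was not tested.

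**Figure D4:**
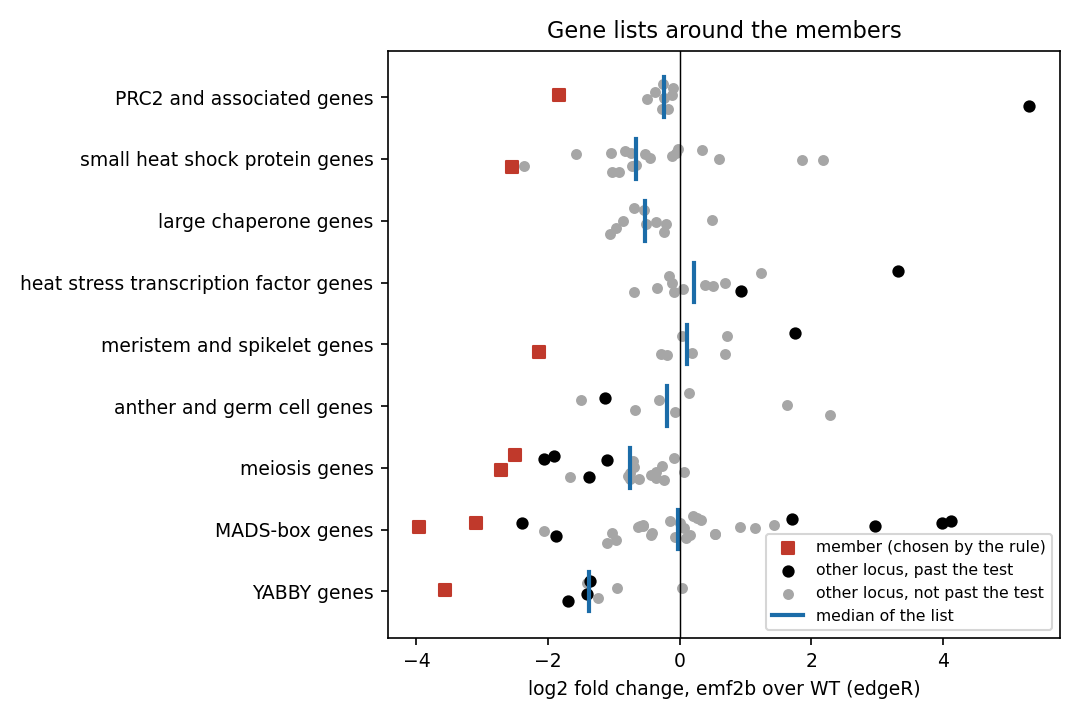
Fitted log2 fold change, emf2b over WT, of the tested loci of 9 gene lists; red squares are members chosen by the rule, black points are other loci past the edgeR test, grey points did not pass, and blue bars are list medians. HSP16.9A, SL1 and EMF2B stand to the left of the median of their lists, and the medians lie between -1.39 for YABBY genes and 0.22 for heat stress transcription factor genes.

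The remaining 8 loci are given by their identifiers, since the gene table used here pairs none of them with a symbol, and no role is given to them. LOC_Os02g15930 (chromosome 2) was the second most abundant member, at 3877 and 3663 CPM in WT ACCC and CGTA, and at 1028 and 379 CPM in emf2b GAGT and TTAG. The WT libraries were 1.06 times apart, while the emf2b libraries differed by 2.71 times, the widest gap between mutant libraries among the 16. It ranked 14 and 13 among all loci in WT and 83 and 317 in emf2b. The fitted log2 fold change of -2.45 ± 0.47 (SE) became -3.41 ± 0.31 without emf2b GAGT and was -1.88 at the other end of the alternatives.

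LOC_Os04g14340 (chromosome 4) had 177 and 243 CPM in WT ACCC and CGTA and 31.9 and 58.0 CPM in emf2b GAGT and TTAG. Both genotypes varied at this locus, by 1.37 times in WT and 1.82 times in emf2b, and its ratio of 32.7% of the lower WT value put it just inside the rule. The flanking loci LOC_Os04g14320 and LOC_Os04g14350 reached at most 0.197 and 0.709 CPM in any library, while LOC_Os04g14410, 5 places away, stood at 65.2 to 105 CPM.

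LOC_Os03g03724 (chromosome 3) had the deepest loss. It held 321 and 537 reads in WT ACCC and CGTA (12.6 and 16.7 CPM) and 10 and 8 reads in emf2b GAGT and TTAG (0.773 and 0.473 CPM). The ratio of the means was 23.6, and the log2 fold change was -4.62 ± 0.41 (SE). The ratio of the pooled reads, scaled by pooled totals, had an exact 95% counting interval of 15.6 to 42.0. For scale, the 9379 loci with no WT read had medians of 1 and 2 reads, 95th percentiles of 5 and 11 and 99th percentiles of 10 and 22 in emf2b GAGT and TTAG. Such loci also hold some called higher in emf2b, LOC_Os01g04960 among them, so their range is not a floor of noise. The reads of LOC_Os03g03724 lay within that range, near its upper end in emf2b GAGT. It was the only described locus at or under the 99th percentile, and OsMADS8, with 18 reads in each mutant library, was under it in emf2b TTAG. Whether any of these reads came from the locus was not tested.

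LOC_Os01g04920 (chromosome 1) had 19.7 and 23.6 CPM in WT ACCC and CGTA and 2.24 CPM in either emf2b library. LOC_Os02g31030 (chromosome 2) had 38.3 and 41.6 CPM in the WT libraries and 4.95 and 3.96 CPM in the mutant ones, in the same order of libraries. LOC_Os02g10780 (chromosome 2) had 34.7, 27.0, 4.48 and 4.31 CPM in that order. At these 3 loci the libraries of a genotype differed by 1.29 times or less and the lower WT value was 8.77, 7.73 and 6.01 times the higher emf2b value. With LOC_Os03g03724 they are the 4 of the 11 loci that also passed a limit of 4 times.

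LOC_Os01g10530 (chromosome 1) had 17.93 and 13.1 CPM in WT ACCC and CGTA and 3.25 and 3.31 CPM in emf2b GAGT and TTAG. LOC_Os06g40120 (chromosome 6) had 39.4, 26.5, 8.82 and 7.38 CPM in the same order. Both were higher in WT ACCC than in WT CGTA, unlike SL1 and LOC_Os04g14340. The higher emf2b value of LOC_Os06g40120 was 33.2% of the lower WT value, the closest of all members to the limit, and the locus left the set when libraries were scaled by TMM or RLE factors in place of totals, or thinned to equal depth. The exact 95% upper bound of the ratio stayed within the limit for 11 of the 16 loci and for 6 of the 11; those beyond it were SL1, EMF2B, LOC_Os01g10530, LOC_Os04g14340 and LOC_Os06g40120.

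Loci next to each limit were listed 3 to a side, a number set in advance that does not show how many lay near. At a limit of 2 times 64 loci met the rule, beside 16 at 3 times. Just outside the limit of 3 times lay LOC_Os03g48310, whose higher emf2b value was 33.7% of the lower WT value, then OsMADS1 with 36.9% and LOC_Os01g12890 with 37.0%. OsMADS1, an E-class gene of lemma and palea identity, had 22.8 and 31.4 CPM in the WT libraries and 8.43 and 6.68 CPM in the mutant ones. Just under the WT minimum, at ratios that met the rule, were LOC_Os12g38750 with a lower WT value of 7.60 CPM, LOC_Os02g48430 with 7.17 CPM and LOC_Os01g57082 with 6.86 CPM. Just above that minimum were OsMADS8, LOC_Os03g03724 and LOC_Os01g10530, at 12.5, 12.6 and 13.1 CPM.

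Among themselves the 11 loci did not vary alike between libraries of a genotype. The rule used the lower WT and the higher emf2b value, so these spreads are not independent of it and are a description. WT CGTA was above WT ACCC at 6 of the 11, against 59.9% of the 10301 loci. The higher WT value was 1.04 to 1.74 times the lower, with a median of 1.32 beside 1.15 over the 10301 loci. For the mutant libraries the range was 1.001 to 2.71 times and the median 1.25 beside 1.17, and emf2b TTAG was above emf2b GAGT at 5 of the 11. The 5 MADS-box, YABBY and meiosis members were all higher in WT CGTA, by 1.01 to 2.33 times. HSP16.9A and LOC_Os02g15930 together made up 1.95% and 1.26% of WT reads and 0.353% and 0.220% of emf2b reads. The other 9 summed to 451 and 534 CPM in WT ACCC and CGTA and to 84.2 and 115 CPM in emf2b GAGT and TTAG.

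The 11 loci lay on 6 chromosomes, 4 of them on chromosome 1 and 3 on chromosome 2. None was within 5 listed loci of another member. The closest were SL1 and HSP16.9A, 46 listed loci apart, and HSP16.9A and LOC_Os01g04920, 42 apart. Levels at the surrounding loci were not used by the rule and were tested, though shared or overlapping reads could link them to a member. Of 110 loci within 5 places of the 11, 66 were tested, and 6 rose, 0 fell and 60 did not pass by edgeR. That is 9.09% higher, beside 13.5% of all tested loci. DESeq2 called 6 higher and 1 lower of 81, and 11 and 8 of the 66 had an unadjusted p under 0.05. Without either WT library 0 rose and 0 fell, without emf2b TTAG 3 rose and without emf2b GAGT 11. The 6 risers were LOC_Os01g04330 near HSP16.9A, LOC_Os01g04960 and LOC_Os01g05000 near LOC_Os01g04920, LOC_Os02g10800 near LOC_Os02g10780, LOC_Os02g15910 near LOC_Os02g15930, and LOC_Os04g14270 near LOC_Os04g14340. Of the 13 direct neighbours tested 0 rose and 0 fell by edgeR, with 1 and 1 at an unadjusted p under 0.05 and 1 and 0 of 16 by DESeq2. LOC_Os02g10770, beside LOC_Os02g10780, had 29.3 and 25.3 CPM in the mutant libraries and 26.8 and 25.6 CPM in the WT ones. LOC_Os01g04930, beside LOC_Os01g04920, had 21.1 and 27.9 CPM in the mutant libraries and 26.71 and 25.8 CPM in the WT ones.

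**Figure D5:**
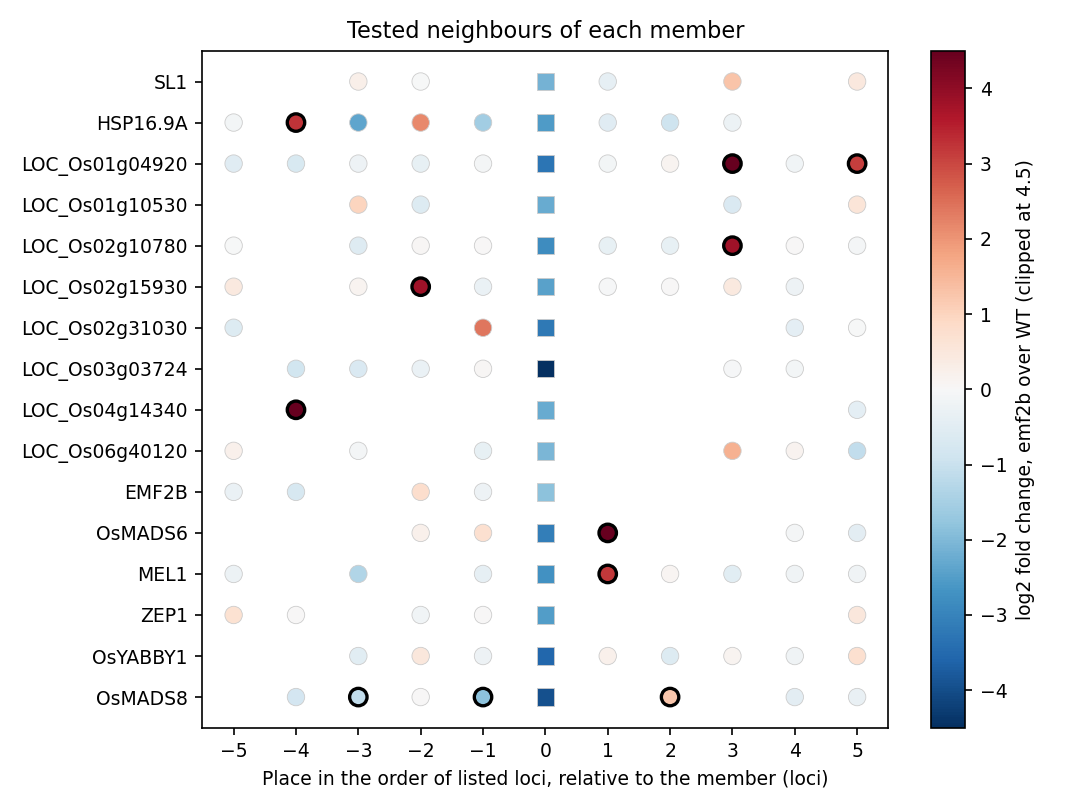
Tested loci up to 5 places from each of the 16 members in the order of listed loci, coloured by log2 fold change, emf2b over WT (clipped at 4.5); squares are the members, circles the neighbours, black rims mark neighbours past the edgeR test, and loci too weakly counted to be tested are left blank. The blue squares of the members have mostly pale neighbours. Past the test are 9 risers and 2 fallers of 99 tested (9.09% and 2.02%), beside 13.5% and 2.21% of all tested loci.

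Of the 21 tested direct neighbours of all 16 members, 2 rose and 1 fell by edgeR (9.52% and 4.76%). Over all tested loci 13.5% rose and 2.21% fell. The called direct neighbours all lay beside the 5 other members. LOC_Os02g45780, beside OsMADS6, rose from 16 and 5 reads in the WT libraries to 133 and 151 in the mutant ones (4.63 ± 0.54 SE on the log2 scale, edgeR adjusted p = 0.00686). LOC_Os03g58610, beside MEL1, rose from 2.80 and 3.12 CPM to 26.8 and 28.2 CPM (3.18 ± 0.24, edgeR adjusted p = 0.00376). LOC_Os09g32944, beside OsMADS8, fell with it, from 10.7 and 21.3 CPM to 4.098 and 5.02 CPM (-1.84 ± 0.38, edgeR adjusted p = 0.0193). PAIR2 and LOC_Os09g32960, also within 5 places of OsMADS8, changed by -1.11 ± 0.23 and 1.24 ± 0.34 (SE; edgeR adjusted p = 0.0193 and 0.0466); both calls were lost without either WT library or emf2b TTAG, that of PAIR2 also without emf2b GAGT, and that of LOC_Os09g32960 also without the filter on low counts and with legacy quasi-dispersions. Without stated use of strand in the counting, reads of overlapping or antisense neighbours cannot be told apart. Without 1 library, 0 to 15 of the neighbours of all 16 members rose and 0 to 1 fell; the calls of LOC_Os02g45780, LOC_Os03g58610 and LOC_Os09g32944 were lost without WT CGTA, and that of LOC_Os09g32944 also without emf2b TTAG.

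Most markers of germ cells did not pass the edgeR test, which called 13.5% of all tested loci higher and 2.21% lower. Of 19 meiosis genes other than MEL1 and ZEP1, 0 rose, 4 fell and 15 did not pass (edgeR; DESeq2 0 and 4, unadjusted 0 and 7). Their mean was lower in emf2b at 18 of the 19, beside 46.8% of all tested loci. A lower mean was also seen at 9 of 10 large chaperone, 8 of 9 other PRC2 and 6 of 7 other YABBY genes. So it was at 14 of 18 other small heat shock protein and 5 of 8 anther and germ cell genes. It was seen at 14 of 30 other MADS-box, 5 of 12 heat stress factor and 2 of 7 other meristem genes. Leaf and reference genes had 2 of 4 each and endosperm genes 0 of 1. Loci with both WT libraries at 10 CPM or more had a median log2 fold change of -0.15. Summed without MEL1 and ZEP1 the meiosis genes stood at 285 and 379 CPM in the WT libraries and 178 and 232 CPM in the mutant ones, none at 0 in emf2b. The widest falls among them were LOC_Os12g38460, from 7.88 and 10.9 CPM in WT to 1.08 and 3.37 CPM in the mutant, and LOC_Os11g04954, from 19.9 and 10.4 CPM to 5.72 and 2.66 CPM (edgeR adjusted p = 0.0263 and 0.0338). Both calls were lost without either WT library, and the second also without emf2b TTAG. Of 8 tested anther and germ cell genes 0 rose, 1 fell and 7 did not pass (edgeR; DESeq2 1 and 2 of 11, unadjusted 2 and 2); the list summed to 251 and 287 CPM in the WT libraries and 193 and 237 CPM in the mutant ones, with 1 of its 12 loci at 0 in emf2b. The faller, LOC_Os10g34430, went from 19.8 and 27.7 CPM to 9.43 and 12.7 CPM (edgeR adjusted p = 0.0273), a call lost without either WT library or emf2b GAGT. In whole panicles, fewer cells of a type and less RNA per cell cannot be told apart, and the part of such cells in the loss at the 11 loci was not tested.

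Of 7 other YABBY genes 0 rose, 3 fell and 4 did not pass (edgeR; DESeq2 0 and 5, unadjusted 0 and 5). DL, of carpel and midrib identity, fell from 3.98 and 4.67 CPM to 1.31 and 1.42 CPM (edgeR adjusted p = 0.0300), a call lost without any 1 library. OsYABBY4 fell from 58.6 and 89.2 CPM to 26.8 and 30.2 CPM (edgeR adjusted p = 0.0122). Of 30 other MADS-box genes 4 rose, 2 fell and 24 did not pass (edgeR; DESeq2 5 and 4 of 34, unadjusted 6 and 6), and 0 rose and 0 fell without either WT library. By the same edgeR test 13.5% of all tested loci rose and 2.21% fell. The largest changes among these MADS-box genes were at OsMADS21 and LOC_Os06g23980 (edgeR adjusted p = 0.0169 and 0.0122). OsMADS21 had 0 and 6 reads in WT and 24 and 34 in the mutant, and LOC_Os06g23980 had 3 and 2 reads and then 18 and 27. The 4 leaf genes and the 1 endosperm gene tested gave 0 calls by edgeR, 0 by DESeq2 and 0 at an unadjusted p under 0.05. The leaf gene CAB1R had 22.2 and 7.76 CPM in the WT libraries and 15.7 and 46.2 CPM in the mutant ones, and GLUA1, for a seed glutelin, had 4.73 and 3.86 CPM and then 5.57 and 5.44 CPM. Of 4 reference genes 1 rose, LOC_Os02g06640, from 212 and 149 CPM to 786 and 504 CPM (edgeR adjusted p = 0.0120), a call lost without either WT library. ACT1, for actin, was at 44.2 and 42.9 CPM in the WT libraries and 27.6 and 41.9 CPM in the mutant ones. All 8 members on the lists are among the loci called lower. The rule chose them as lower, so their calls are no test. Over all 12 lists, these members included, 9 of 137 tested loci were called higher and 18 lower. These counts were 0 and 8 if WT ACCC was left out, 0 and 2 for WT CGTA, and 14 and 13 for emf2b GAGT. Among the meiosis genes other than MEL1 and ZEP1 0 fell without either WT library, and 2 and 3 fell without emf2b GAGT and TTAG. Among the other YABBY genes 0 fell without WT CGTA and 1 without any other library.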

How the data were processed

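The members and gene lists were chosen with earlier results of these data known. The authors deposited raw read counts per gene model for 2 WT and 2 emf2b libraries. The submitters' processing notes list TopHat2 2.0.5 and DESeq 1.10.1, with no role. Total RNA (10 ng) was amplified and read in 40 cycles of single reads, per the labels' protocols. Build, annotation, read counting and strandedness: not given in the sources used here. Columns carry a genotype and a barcode, so each has a group but no replicate number. Libraries of a genotype differed beyond counting noise (chi-square per degree of freedom 25.3 in emf2b and 34.4 in WT); p-values measure only this spread, which may be technical.

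CPM used column totals. Other loci were tested with edgeR 4.0.16 in R 4.3.3 (filterByExpr with minimum count 10 and minimum total 15, TMM, non-legacy quasi-likelihood F test, 2 residual degrees of freedom, two-sided, Benjamini-Hochberg over 22615 loci, threshold 0.05). DESeq2 1.42.0 was an alternative. Positive log2 fold changes are higher in emf2b; SE is the absolute log2 fold change over the square root of F. Read-ratio intervals are exact binomial and cover counting error only. The edgeR fit and the intervals were tested on simulated data.

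The 12 lists hold 165 loci, 163 of them in the table and 137 tested. Named were all members, the loci next to each limit, neighbours, and per list up to 2 other loci past the test with the largest change, or the largest change where none passed; LHP1, HSP101, HSP17.9A, LOC_Os01g08860, OSH1, ACT1 and the neighbours with values were chosen after their values were seen. Symbols come from general knowledge, checked by chromosome against a RefSeq gene table of another assembly, ASM3414082v1: 103 were found there, 5 on another chromosome and 38 not at all. Listed loci whose symbol was not matched are given by identifier, except EMF2B.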

Additional observations from a re-analysis of the deposited data

How the results depend on the processing

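The count of 16 members was 15 with TMM-adjusted or RLE-scaled totals, 16 after thinning (15 shared) and with totals that leave out the members, 21 at a WT minimum of 5 CPM and 11 at 20 CPM, and 11 with the counting bound. It was 64 at a limit of 2 times and 9 at 4 times, and 23 to 59 with 1 library left out. The log2 fold changes of the 16 members were negative in all 128 refits, which the rule fixes by its choice of loci; the fold of LOC_Os02g15930 moved by 1.95 times without emf2b GAGT (to -3.41) and that of OsYABBY1 by 1.63 times without WT CGTA (to -2.86). Over all loci the test called 3057 higher and 499 lower; with 1 library left out the counts were 16 to 3673 higher and 4 to 401 lower. Over the 12 lists it called 9 higher and 18 lower, with 0 to 14 and 2 to 17 when 1 library was left out. The 18 lower over the lists include the 8 listed members, which the rule chose as lower. Fits without 1 library of a pair assume that the lone library varies like the libraries of the other genotype. Of the loci named from the lists and neighbours, 66 of 212 refits lost the call, 1 gained it, and 1 reversed: LOC_Os01g62290, an HSP70 gene that did not pass, went from -1.06 to 0.70 without WT ACCC, and was -1.84 without WT CGTA; the cause was not tested. No paired analysis was possible because the columns carry no replicate numbers. Legacy quasi-dispersions and totals without the members were added after seeing the data. Depth limits the loci with few mutant reads, such as LOC_Os03g03724.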
